A study of Rattus norvegicus with 12 samples.

Results

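Genes whose symbol was Olr followed by a number below 300 were examined as dim probe sets in the embryonic rat forebrain. The rule took each probe set that the platform annotation gave to exactly 1 such gene, and the brightest probe set where a gene had several. It found 7 genes among the 14506 with a name of their own on the array: Olr1, Olr5, Olr10, Olr35, Olr36, Olr59 and Olr193. Each was read by 1 probe set, and the rule uses no difference between the genotypes. Olr220, which shares its probe set with other receptors, did not qualify.

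The label of olfactory receptor was kept for 6 of these 7 genes, from their symbols. Olr10 was not matched in RefSeq, and of the others only Olr59 is listed there with a receptor synonym. Olr1 is listed in RefSeq with the synonyms LOX-1 and Oldlr1: it is the lectin-like receptor for oxidized low-density lipoprotein of endothelial cells and macrophages, and only its symbol resembles the others. Values over all 7 genes are therefore given beside those over the 6 receptors. The 7 genes are also few, because the annotation names most rat olfactory receptors by the newer Or symbols. There were 1052 genes with such symbols, and 46 with Olr numbers of 300 or above, all outside the rule.

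The tissue was the whole ganglionic eminence, the ventral forebrain that forms the striatum, taken at embryonic day 14. Of 12 embryos, 6 were wild type and 6 carried BACHD in the homozygous state (BACHD+/+), a transgene that encodes human huntingtin in full length and holds 96 CAG repeats. Both genotypes came from the same 3 transgenic dams, dissected on the same day. Each array read 1 embryo, and neither the dam of each embryo nor the promoter of the transgene is in the labels used here.

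Olfactory receptors are G protein-coupled receptors that bind odorants in the cilia of sensory neurons of the nose. Each mature neuron transcribes a single receptor gene, and bound odorant acts through the G protein subunit of Gnal, the adenylyl cyclase of Adcy3 and the cyclic nucleotide-gated channel of Cnga2, Cnga4 and Cngb1. The family is known from the nose, and the embryonic ventral forebrain holds no such sensory neurons. Olr59 is known also outside the nose. RefSeq gives it the synonyms Olfr78 and Or51e2, a receptor for short-chain fatty acids studied in blood vessels, kidney and carotid body.

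RefSeq start windows, of 250 bases before and 50 after an annotated start in the assembly GRCr8, were found for 5 of the 7 genes, not for Olr10 and Olr193. They are shown because they tell what an annotated start means in this family. For 893 of 894 Or genes the base after position 250 opened an ATG, as in 3012 of all 33469 windows, so these starts are start codons and the window is not a promoter of known position. The windows of Olr5, Olr35 and Olr36 opened in the same way, those of Olr59 and Olr1 did not. In the sequences below, 5′ to 3′ on the gene's strand, capitals mark this ATG and, in the 250 bases before it, TAATTA and TATAAA on either strand. Olr5 (chr1:76396829-76397128, plus strand) and Olr36 (chr1:163464629-163464928, plus strand) are whole windows. Olr59 (chr1:166610904-166611153, minus strand) and Olr1 (chr4:164634548-164634797, minus strand) are the 250 bases before the start.
Olr5: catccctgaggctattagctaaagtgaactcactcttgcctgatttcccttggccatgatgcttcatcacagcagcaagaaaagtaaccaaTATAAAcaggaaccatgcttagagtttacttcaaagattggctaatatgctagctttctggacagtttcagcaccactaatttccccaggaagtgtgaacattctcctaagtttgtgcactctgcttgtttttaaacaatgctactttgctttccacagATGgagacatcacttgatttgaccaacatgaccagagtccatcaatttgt
Olr36: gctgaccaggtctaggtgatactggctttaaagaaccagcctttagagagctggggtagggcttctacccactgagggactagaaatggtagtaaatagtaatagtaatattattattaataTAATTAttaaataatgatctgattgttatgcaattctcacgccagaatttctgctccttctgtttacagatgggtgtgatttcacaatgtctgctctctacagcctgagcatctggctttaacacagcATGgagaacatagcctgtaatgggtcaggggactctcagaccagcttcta
Olr59: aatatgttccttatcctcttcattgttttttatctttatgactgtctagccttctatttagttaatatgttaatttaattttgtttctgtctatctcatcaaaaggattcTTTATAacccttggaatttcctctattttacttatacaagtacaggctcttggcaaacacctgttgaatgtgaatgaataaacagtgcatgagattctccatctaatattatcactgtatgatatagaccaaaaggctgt
Olr1: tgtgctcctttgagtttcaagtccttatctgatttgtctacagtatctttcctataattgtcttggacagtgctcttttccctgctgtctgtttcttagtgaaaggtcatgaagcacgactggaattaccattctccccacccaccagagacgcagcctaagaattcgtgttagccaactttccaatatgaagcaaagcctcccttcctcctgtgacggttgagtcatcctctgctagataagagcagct

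The 250 bases were searched on both strands for 3 motifs. The motif TAATTA, a core bound by homeodomain proteins such as Lhx2, was present in 2 of 5 windows (Olr35 and Olr36), in 18.1% of the Or genes and in 4.86% of all windows. TATAAA was present in 3 of 5 (Olr5, Olr35 and Olr59), in 35.7% of the Or genes and in 12.9% of all. CCCNNGGGA, a core bound by Ebf proteins, was in none of the 5, in 0.783% of the Or genes and in 5.12% of all. Matches of TAATTA and TATAAA can overlap by their shared TA. These are matches of letters only. In nearly all Or windows the searched bases end at an ATG, but not in most windows of the full set, nor in those of Olr59 and Olr1. The 5 windows also include Olr1, which is not an olfactory receptor. The shares therefore compare unlike positions, and whether receptors hold a motif more or less often was not tested.

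The neighbours in the genome also set Olr1 apart. Among the 3 protein-coding genes on either side, Olr59 and Olr193 had 6 olfactory receptors of 6, and Olr5 had 5 of 6. Olr35 and Olr36 lie next to each other, and each had 2 of 6. Olr1 had none, and stands beside the lectin genes Clec7a, Clec1a and Clec9a. Olr10 was not matched in this table.

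All 7 genes were dim. Their means over the 12 arrays lay between 4.32 and 6.17 (log2 intensity), where the median over all 29214 probe sets was 7.71. Olr10 was at percentile 5.01 of all probe sets, Olr5 at 7.73, and Olr36, the brightest, at 23.6. Brightness also depends on the probe sequences, so these positions do not order the genes by transcript abundance. A dim probe set is not shown to be unexpressed either, since no detection call was used here.

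**Figure D1:**
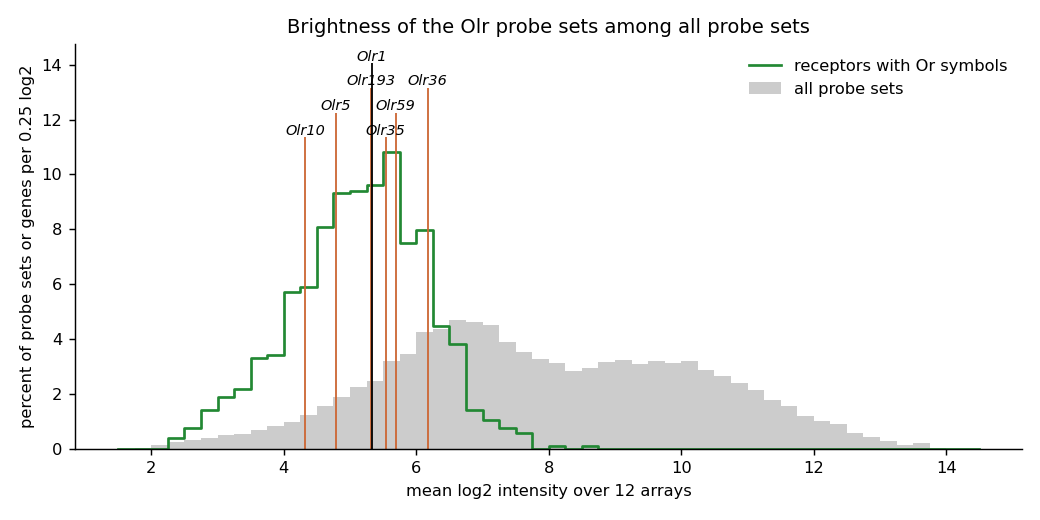
Mean log2 intensity over the 12 arrays (horizontal) of all 29214 probe sets (grey bars) and of 1052 receptor genes with Or symbols (green outline), as percent per 0.25 log2 (vertical), with orange lines for the 6 olfactory receptors and a black line for Olr1. All 7 lines lie between 4.32 and 6.17, inside the main body of the Or receptors and below the median of all probe sets at 7.71.

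The wider family lay in the same range. The 1052 Or genes had a median of 5.21, and 87.7% of them were below the 25th percentile of all probe sets, as were 7 of the 7 genes here. The 46 genes with Olr numbers of 300 and above had a median of 5.12. Other chemoreceptor families were also dim, with medians of 4.49 for 83 Vom1r and 4.27 for 51 Vom2r genes of the vomeronasal organ, 5.11 for 25 bitter taste receptors (Tas2r) and 5.69 for 16 trace amine receptors (Taar).

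Of the genes that receptor signalling needs, 14 of 16 on a chosen list were measured, and none passed an adjusted p of 0.05 in limma. At an unadjusted p under 0.05, 2 of 14 were higher and 0 lower, where 10.2% and 4.81% of all probe sets were, so with so few genes the count is near the background. These 2 were Cnga2, the channel subunit, at 0.22 ± 0.086 (log2 difference, SE, n = 6 per group), and Rtp2, which helps receptors to the cell surface, at 0.19 ± 0.086 (adjusted p = 0.265 and 0.315 in limma). The brightest were Ric8b (10.83), a chaperone of G protein subunits, Gnal (8.39) and Pde4a (7.91), and these are also used in brain cells. All 11 regulators of receptor choice on a second list were brighter than any of the 7 genes, and none passed or had an unadjusted p under 0.05. Ldb1, the cofactor of Lhx2, stood at percentile 97.5 with a difference of 0.038 ± 0.026, and Ebf2, an Ebf factor, at 65.1 with -0.11 ± 0.076.

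The tissue label was checked with 13 subpallial genes, of which the 10 measured, among them Dlx1, Gad1 and Nkx2-1, lay at percentile 74.2 or above. The 4 measured genes of a list for the cortex lay at percentiles 56.4 to 81.3, so brightness alone does not settle the label. Array medians ran from 7.67 to 7.76. No array was a copy of another, since the SD of the difference between 2 arrays was 0.146 or more in all 66 pairs. Htt was higher in every homozygous array than in every wild-type array, at 10.26 ± 0.0967 against 9.97 ± 0.114 (SD, n = 6 each); whether its probe set reads the human transcript was not tested. In 7 lists for the eminence and for other cell types, 44 of 57 genes were measured and none passed an adjusted p of 0.05 in limma, with 5 higher and 6 lower at an unadjusted p under 0.05, against the same 10.2% and 4.81%. The smallest p was that of Cdh5, an endothelial cadherin, which differed by 0.15 without overlap (adjusted p = 0.0641 in limma, and 0.0496 over only the probe sets with 1 gene). Nkx2-1, a factor of the medial eminence, differed by 0.16 and P2ry12, a microglial receptor, by -0.18, also without overlap (adjusted p = 0.108 and 0.124 in limma). Of the lower genes, 3 were among the 4 measured of the pallial list, the cortex beside the eminence, and their mean level over the 4 was 9.38 to 10.001 in the wild-type arrays and 9.43 to 9.54 in the homozygous ones. Neurod6, a pallial neuron factor, differed by -0.36 and Hbb, the beta globin of red blood cells, by -0.49 (adjusted p = 0.145 and 0.155 in limma). The 4 blood genes ran from 9.07 to 9.76 and from 8.97 to 9.46. These named genes had the smallest p of their lists, and other members went the other way in all but the pallial list. Differences above 0 numbered 5 of 7 in the endothelial list (median 0.0079), 6 of 10 in the subpallial (0.022) and 3 of 7 in the microglial (-0.024). They numbered 1 of 4 in the blood list (median -0.10) and 0 of 4 in the pallial (-0.25). In the choroid plexus list they numbered 5 of 6 (median 0.078), and in the meningeal list 4 of 6 (0.037). Of the 5 higher genes, 2 were in the choroid plexus list, 2 in the endothelial and 1 in the subpallial. The part of these cell types in the differences of the 7 genes was not tested.

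No gene of the 7 passed the test between genotypes. The limma fit over all 29214 probe sets, with Benjamini-Hochberg adjustment, called 0 of 7 at an adjusted p of 0.05, against 0.424% of all probe sets, and with a share that small a count of 0 is also the background. At an unadjusted p under 0.05 there were 0 of 7 higher and 0 of 7 lower in homozygous embryos, against 10.2% and 4.81%. Of 10 equal bins of probe sets by brightness, bins 1, 2 and 3 from the dim end held all 7 genes. At this p, 4.62%, 9.17% and 12.1% of the probe sets in these bins were higher and 1.57%, 1.13% and 1.03% lower. No gene had groups that did not overlap, against 1.16% of all probe sets for higher and 0.698% for lower. The counts were the same over the 6 receptors.

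All 7 differences were above 0, as were 64.8% of those of all probe sets. Among the probe sets of bins 1, 2 and 3 the shares above 0 were 61.9%, 73.0% and 79.3%. The 7 differences ran from 0.039 to 0.26 with a median of 0.059, or 0.068 over the 6 receptors, and the median over all probe sets was 0.029. The sign depended on the scaling: 5 of 7 were above 0 after quantile normalization or cyclic loess, where Olr35 and Olr36 were below 0. Centring the arrays on their medians lowers all differences alike, and left Olr35 at 0.00093 (adjusted p = 0.997 in limma). Over all probe sets, 51.4% were above 0 after quantile normalization and 45.6% with centred arrays.

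Among the receptors, Olr59, the fatty acid receptor, had a lowest, median and highest wild-type value of 5.47, 5.63 and 5.82, and of 5.55, 5.69 and 5.99 in homozygous embryos. The groups overlapped over most of their range, with homozygous 4 and 2 above every wild-type array. The difference was 0.085 ± 0.079 (log2, SE, n = 6 per group; adjusted p = 0.617 in limma), with a 95% interval of 0.944-fold to 1.19-fold.

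Olr35 and Olr36 are neighbouring receptor genes. Olr35 read 5.37, 5.57 and 5.61 (lowest, median, highest) in the wild-type arrays and 5.46, 5.49 and 5.73 in the homozygous ones. Its homozygous mean was higher but its homozygous median lower, since homozygous 2 and 4 stood above all other arrays and the other 4 homozygous arrays below the wild-type mean. The difference of 0.039 ± 0.067 (adjusted p = 0.801 in limma) was the smallest of the 7. Olr36 read 6.02, 6.15 and 6.26 (lowest, median, highest) in the wild-type arrays and 5.97, 6.19 and 6.39 in the homozygous ones. Both the lowest and the highest array of Olr36 were homozygous, and the SD was 0.0759 in wild type and 0.163 in homozygous embryos. It differed by 0.050 ± 0.071 (adjusted p = 0.754 in limma).

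Olr193, a receptor among the Or52 and Or56 genes, read 5.17, 5.27 and 5.52 (lowest, median, highest) in the wild-type arrays and 5.28, 5.33 and 5.43 in the homozygous ones. The homozygous values lay close together inside the wild-type range, and wild type 6 was the highest of the 12. The difference was 0.052 ± 0.060 (adjusted p = 0.695 in limma), with an interval of 0.948-fold to 1.13-fold.

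Olr5, a receptor beside the Or6z genes, showed the largest difference of the 7 and the largest spread. It read 4.06, 4.78 and 4.96 (lowest, median, highest) in the wild-type arrays and 4.72, 4.93 and 5.07 in the homozygous ones. Wild type 2 (4.06), 6 (4.40) and 1 (4.64) lay below every homozygous array, and wild type 3, 4 and 5 (4.92, 4.95 and 4.96) among them. The difference of 0.26 ± 0.14 did not pass (adjusted p = 0.385 in limma, unadjusted p = 0.0787), with an interval of 0.977-fold to 1.47-fold. It rested partly on wild type 2, without which it was 0.14 (adjusted p = 0.572). Without wild type 3, 4 or 5 its unadjusted p in limma was 0.0449, 0.0395 or 0.0360, and its adjusted p 0.282, 0.340 or 0.316.

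Olr10 was the dimmest of the 7. It read 4.13, 4.25 and 4.42 (lowest, median, highest) in the wild-type arrays and 4.24, 4.34 and 4.58 in the homozygous ones. Wild type 1 and 2 were the lowest arrays and homozygous 4 and 3 the highest, and the rest overlapped. The difference was 0.11 ± 0.075 (adjusted p = 0.491 in limma), with an interval of 0.967-fold to 1.21-fold.

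Olr1, the lipoprotein receptor, read 5.15, 5.30 and 5.45 (lowest, median, highest) in the wild-type arrays and 5.24, 5.37 and 5.45 in the homozygous ones. The groups overlapped almost fully. The difference was 0.059 ± 0.058 (adjusted p = 0.641 in limma), within the span of the 6 receptors. Its neighbours Clec7a, Clec1a and Clec9a on one side, also dim at 5.99, 6.03 and 5.35, differed by 0.041, 0.047 and -0.022 (adjusted p = 0.720, 0.724 and 0.883 in limma). On the other side, Tmem52b, Gabarapl1 and Klre1, at 7.17, 11.53 and 4.45, differed by 0.13, 0.083 and 0.099 (adjusted p = 0.456, 0.163 and 0.400 in limma).

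**Figure D2:**
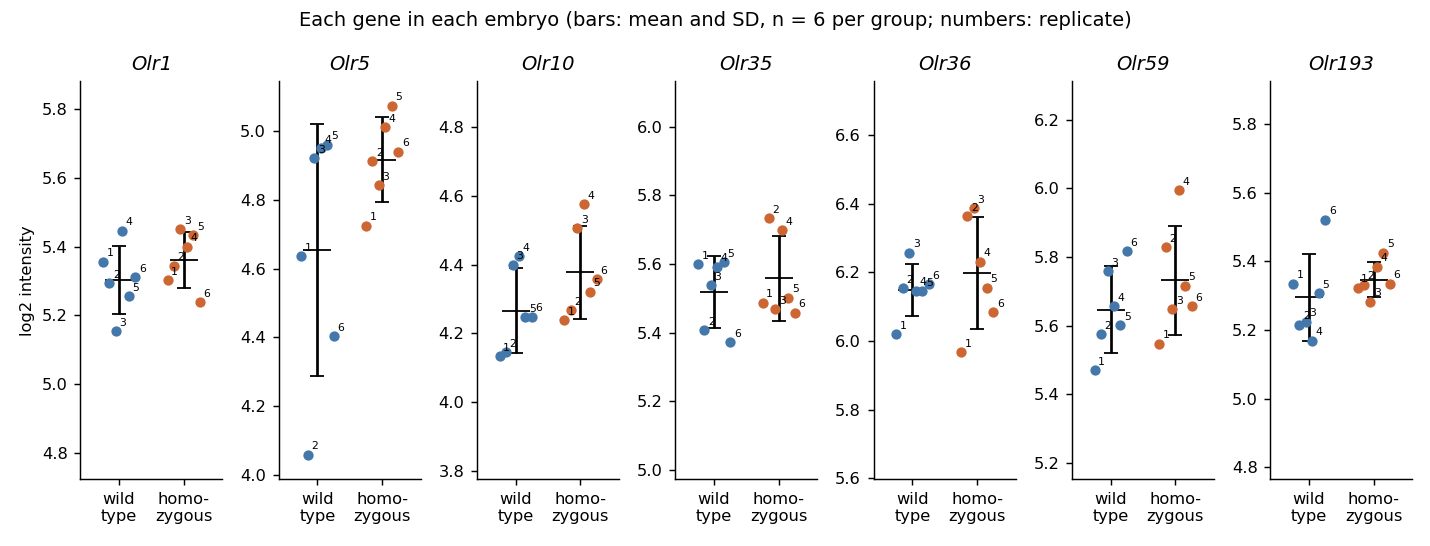
Log2 intensity (vertical, same span in each panel) of the 7 genes in each of 6 wild-type (blue) and 6 homozygous (orange) embryos, numbered by replicate, with the mean and SD of each group. The groups overlap in all 7 panels, and Olr5 is widest, from 4.06 in wild type 2 to 5.07 in homozygous 5.

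A few arrays were high or low in most of the 7 genes. Homozygous 4 lay above the 12-array median in 7 of 7 genes and homozygous 5 in 6 of 7, while wild type 2 and homozygous 1 did so in 0 of 7. Wild type 3, with 5 of 7, was as often high as homozygous 2. The median of homozygous 1 over all probe sets, 7.69, was the lowest of the homozygous arrays. Over all 12 arrays, wild type 2 had the lowest such median (7.67) and homozygous 5 the highest (7.76). Not every array followed its median: homozygous 3, with 3 of 7 genes, stood at 7.75, and wild type 3 at 7.68.

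As a level for each array, the median over the 7 genes was 5.22 to 5.45 in the wild-type arrays and 5.32 to 5.45 in the homozygous ones, with group means of 5.33 ± 0.0764 and 5.38 ± 0.0542 (SD, n = 6 each). Over the 6 receptors it ran from 5.31 to 5.45 and from 5.38 to 5.54. The ranges overlapped in both cases. Measured from the median of all probe sets in the same array, the 7 genes stood at -2.36 ± 0.0715 in wild type and -2.34 ± 0.0316 in homozygous embryos, so on this relative scale the group means differed by less than the spread within either group. Between 11.6% and 13.8% of probe sets in an array lay below this level.

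Replicate spread was larger than for a typical probe set. The pooled SD within groups had a median of 0.127 over the 7 genes, from 0.0903 for Olr1 to 0.274 for Olr5, and of 0.0990 over all probe sets. Spread grew as probe sets dimmed, from a median of 0.0548 in the brightest of 10 equal bins of probe sets to 0.139 in the dimmest. Against the median of their own bin (0.139, 0.127 and 0.116 for bins 1, 2 and 3 from the dim end), Olr5, Olr59 and Olr36 were above and Olr1, Olr10, Olr35 and Olr193 below.

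**Figure D3:**
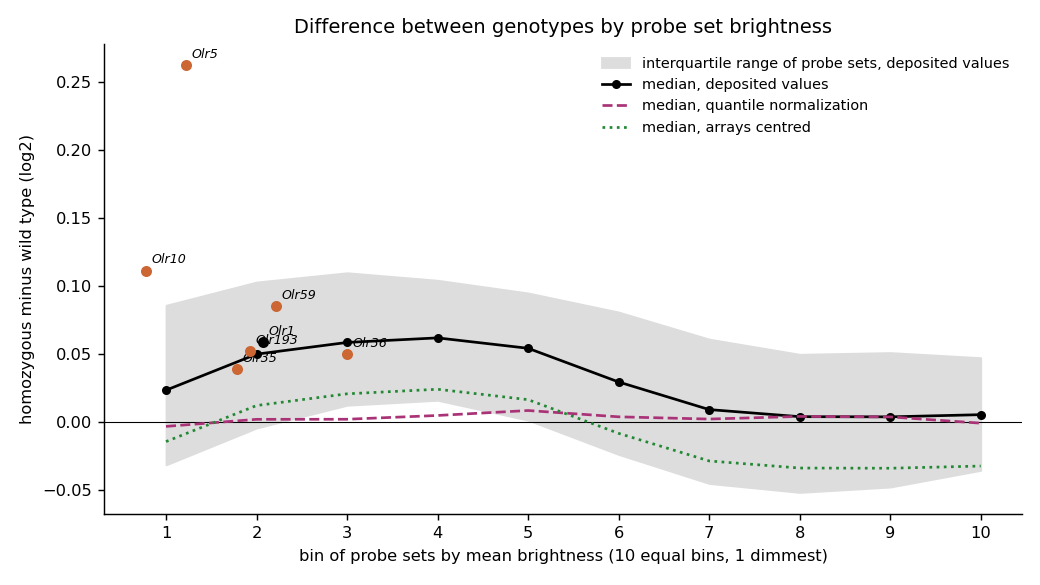
Homozygous minus wild type (log2, vertical) against 10 equal bins of probe sets by mean brightness (horizontal, 1 the dimmest), with the median (black) and interquartile range (grey) of the deposited values, the medians after centring (green) and quantile normalization (purple), and the 7 genes (orange, Olr1 black). The black line rises from 0.023 to 0.062 in bin 4 and falls to 0.0037 in bin 9, and 5 of the 7 genes lie in the grey band.

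The median difference of dim probe sets was slightly above 0, by about as much as the arrays of a group spread. The median of bin 1 was 4.30 ± 0.0325 in wild-type and 4.33 ± 0.0389 in homozygous arrays (log2 intensity, SD, n = 6 each), and that of bin 2 was 5.55 ± 0.0421 and 5.60 ± 0.0434, with overlapping ranges in both. By bins of brightness, the median difference was 0.023 in the dimmest, 0.050, 0.058, 0.062 and 0.054 in the next 4, and between 0.0037 and 0.0090 in the brightest 4. In bin 4, 80.7% of differences were above 0, and in bin 9, 52.1%. Of the 7 genes, 2 lay in bin 1, 4 in bin 2 and 1 in bin 3. Against the median of its own bin, Olr193 differed by 0.0021 more, Olr1 by 0.0090 more, Olr59 by 0.035 more, Olr36 by -0.0085 and Olr35 by -0.011. Olr10 and Olr5 were 0.088 and 0.24 above theirs, and their differences lay beyond the upper quartile of that bin (0.086).

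The pattern over brightness moved with the scaling. After quantile normalization the medians of the 10 bins lay between -0.0034 and 0.0083. With arrays centred on their medians, which takes the same amount from every probe set and so cannot change the order of the bins, they lay between -0.034 and 0.024. Without wild type 1 and 2, an alternative chosen after seeing the data, the median of bin 4 was 0.037 in place of 0.062, that of bin 2 was 0.026 in place of 0.050, and Olr5 read 0.11 in place of 0.26. The bins that held the 7 genes gave 2, 2 and 4 of the 124 probe sets past an adjusted p of 0.05 in limma.

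**Figure D4:**
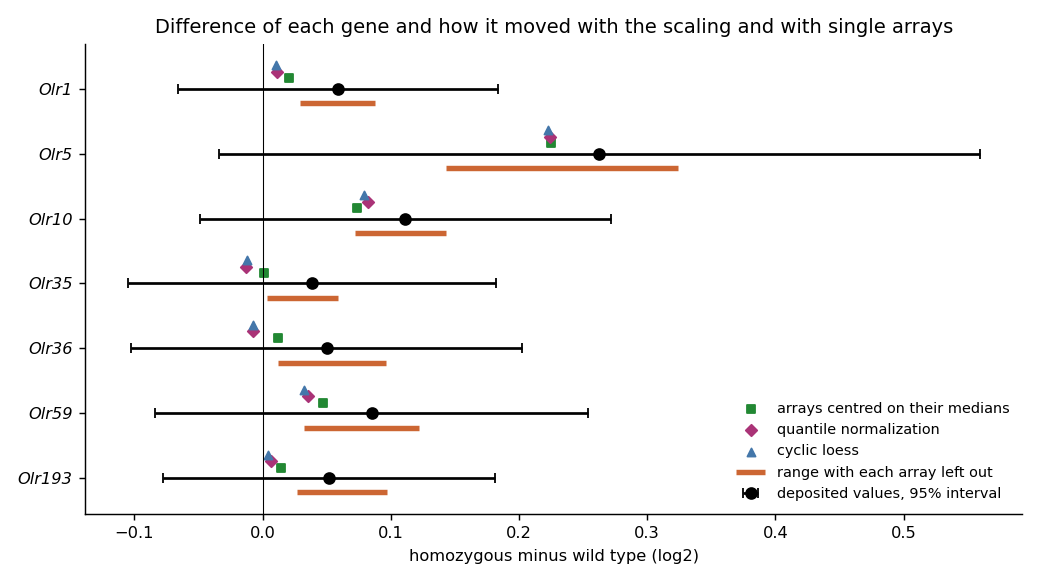
Homozygous minus wild type (log2, horizontal) of each of the 7 genes, as measured with its 95% interval (black), after 3 other scalings (coloured symbols), and as the range with each array left out in turn (orange bars). All 7 intervals include 0, and Olr5 moves most, from 0.14 to 0.32 with single arrays left out.

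Of the 1052 Or genes none passed an adjusted p of 0.05 in limma, and at an unadjusted p under 0.05, 4.75% were higher and 1.24% lower, both below the shares over all probe sets. Bins 1, 2 and 3 of brightness held 44.7%, 33.7% and 14.5% of the Or genes. At this p, 4.62%, 9.17% and 12.1% of all probe sets in these bins were higher and 1.57%, 1.13% and 1.03% lower. The median difference of the Or genes was 0.031 with 65.3% above 0, close to all probe sets, but -0.014 with 42.3% above 0 after quantile normalization. Over all probe sets the median after quantile normalization was 0.0025, with 51.4% above 0. The 46 genes with Olr numbers of 300 and above had a median of 0.018 with 27 of 46 above 0, and -0.030 after quantile normalization. None of these 46 passed, and 2 had an unadjusted p under 0.05, both higher. The smaller families did not all follow: after quantile normalization the median was 0.015 for Vom2r and 0.016 for Taar genes, with 56.9% and 56.2% above 0, and -0.016 for Vom1r and -0.015 for Tas2r genes. None of the genes of these 4 families passed. At an unadjusted p under 0.05, 1 Taar gene was higher and 1 lower, 6.25% of the 16 each, 1 Vom2r gene was higher, and 1 Vom1r and 1 Tas2r gene were lower. That 7 of 7 differences were above 0 among the genes of the rule was not tested against these families.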

How the data were processed

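RNA of whole ganglionic eminences from 12 embryos was hybridised to Affymetrix rat Gene 1.0 ST arrays. For every array the deposited table gives 1 log2 intensity a probe set, a scale read from the values. Partek 6.4 and RMA are named, per the submitters' processing notes, with settings not known here. This method usually aligns probe intensities between arrays, which can hide or move a shift of all dim probe sets, and its background step can compress low values, so folds of dim genes may be too small. No depth applies, and the number of arrays limits precision.

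Groups came from the labels. All 29214 probe sets were fitted with limma 3.58.1 in R 4.3.3 (eBayes with an intensity trend, genotype as the only factor, 2-sided), adjusted by Benjamini-Hochberg. The fit was tested on simulated data. Of the probe sets, 15310 had 1 gene, 323 several and 13581 none given. Symbols come from the platform annotation, and 6 of the 7 genes matched RefSeq (GRCr8) by Entrez number. The 10 bins of brightness use the mean over all arrays, so they do not use genotype.

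The genes and lists were chosen with earlier results of these data known. The naming rule took extremes by p, mean and spread, which covers all 7 genes. From each list it took at most 2 genes with the smallest p, or 3 more by brightness for the signalling list. Dlx1 and Gad1 were named only to say what a list holds, and the genes beside Olr1 as neighbours. The other alternatives were a replicate block, 3 scalings, no intensity trend, a filter on dim probe sets, averaged probe sets, only probe sets with 1 gene, and each array left out. Chosen after seeing the data were the 6 receptors alone, the Or genes and leaving out wild type 1 and 2. Figures used matplotlib 3.10.9.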

Additional observations from a re-analysis of the deposited data

Results flagged for a closer look

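None of the 7 genes, and neither of the per-array medians over them, had an array far from the rest of its group. In 62 groups of 6 arrays checked with Dixon's criterion over these values and the listed genes, 1 was marked, and chance marks about 5%. Msx1, a roof plate transcription factor, read 6.58 in wild type 6, above the other wild-type arrays by 0.637 of the group's whole range.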

How the results depend on the processing

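Over the 19 alternatives that gave values for the 7 genes, all 133 differences missed an adjusted p of 0.05 in limma (lowest 0.282) and 4 changed sign: Olr35 read -0.013 after quantile normalization and -0.012 after cyclic loess, and Olr36 read -0.0070 and -0.0076. With each array left out, the count at an unadjusted p under 0.05 ranged from 0 to 1 for higher and was 0 for lower; the 1 was Olr5 without wild type 3, 4 or 5. The median difference over the 7 ranged from 0.044 to 0.097 with each array left out, and was 0.021 with centred arrays, 0.012 after quantile normalization and 0.011 after cyclic loess. Gnal ranged from -0.039 to 0.055, with its sign turned without wild type 1 or 2 or homozygous 2, 3 or 4. The filter at the 25th percentile removed all 7 genes and gave no value. Pairing of the arrays by replicate number was not shown: deviations of same-numbered arrays correlated between -0.082 and 0.26, and 2 of 6 were best matched by their own number. These values were not tested against chance, so pairing is not excluded. With a replicate block none of the 7 passed, with the median still 0.059, Olr10 at an unadjusted p of 0.0504 and Olr5 at 0.0523 in limma, and over all probe sets 18 passed in place of 124. That number was 302 with centred arrays, 120 after quantile normalization, 118 after cyclic loess, 3 with no intensity trend, and 4 to 200 with each array left out. Signal close to the array's lower end limits what these probe sets can show.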

Other observations

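A few receptors with Or symbols lay in the brighter part of all probe sets. Of the 1052, 3 had a mean above the median of all probe sets, and they were singled out after their values were seen. Or2ak5 read 8.53 ± 0.0758 in wild type and 8.49 ± 0.0608 in homozygous embryos (log2 intensity, SD, n = 6 each), at the 60.0th percentile of all probe sets. Or4k48 had a mean of 8.02 over the 12 arrays, and Or10s1 read 7.75 ± 0.0567 and 7.74 ± 0.111. None of these differed past the threshold (adjusted p = 0.634, 0.817 and 0.887 in limma). The Or gene with the smallest p was Or5k16, lower by -0.32 with an adjusted p of 0.0785 in limma at a mean of 3.71.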
